A study of Mus musculus with 8 samples.

Results

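Gastrokines and trefoil factors are small secreted proteins of the stomach lining, and 6 genes of these families, Gkn1, Gkn2, Gkn3, Tff1, Tff2 and Tff3, are described here among the 21626 genes measured. They were chosen by gene symbol, and each of the 6 genes had 1 probe set. The samples were 4 primary gastric adenocarcinomas that arose spontaneously in transgenic mice and were frozen fresh, and 4 samples of normal gastric mucosa, with total RNA hybridised to Affymetrix expression arrays. The labels state no transgene, promoter, strain, age or sex. They leave unsaid whether the normal mucosa came from transgenic animals and whether samples came from separate animals, so each p-value covers no more than the scatter of these 8 samples, part of which can be technical.

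Pit cells at the surface of the gastric glands secrete gastrokines 1 and 2 and trefoil factor 1 into the mucus layer, while mucous neck cells deeper in the gland make trefoil factor 2 and, in mice, gastrokine 3. Trefoil factor 3 is the form of intestinal goblet cells. Trefoil factors carry cysteine-rich trefoil domains, support the mucus gel and help epithelium close wounds, and gastrokines carry a BRICHOS domain. Gkn1 and Tff1 are regarded as suppressors of stomach tumours, and mucous neck cell products persist in spasmolytic polypeptide-expressing metaplasia, a lineage named after Tff2 that appears when acid-secreting parietal cells are lost.

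Means are given with their SD and differences, adenocarcinoma minus normal mucosa, with their SE. All values are log2 RMA values, the deposited scale in which a step of 1 is a doubling of signal. In adenocarcinoma Gkn1, Tff1 and Tff2 fell and Gkn3 rose, while Gkn2 and Tff3 did not pass the test (limma across all genes, Benjamini-Hochberg adjusted p under 0.05). These 4 of 6 calls stand against 41.8% of all genes called in either direction, 18.2% higher and 23.6% lower in adenocarcinoma. The share called lower depended on how the arrays were scaled: it was 42.9% after median centring, 15% after cyclic loess and 7.86% with arrays centred on olfactory and vomeronasal receptor genes, where 4, 2 and 2 of the 6 genes were called lower. The median change of the 6 genes was -0.85 on the log2 scale, against -0.10 over all genes tested. The groups did not overlap for Gkn1, Gkn2, Gkn3, Tff1 and Tff2, as for 34.3% of all genes (15.8% higher and 18.5% lower in adenocarcinoma), and they overlapped for Tff3. In bulk tissue, fewer cells of a type and less RNA per cell cannot be told apart.

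**Figure D1:**
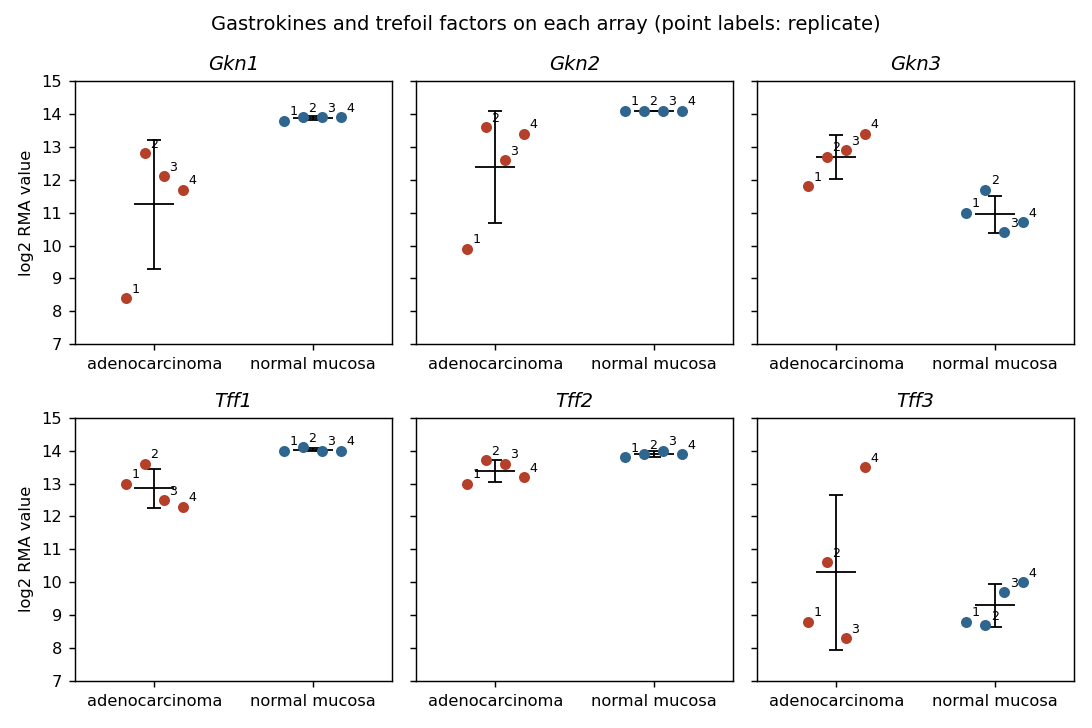
Log2 RMA value (vertical axis) of each gene in 4 adenocarcinomas (red) and 4 samples of normal mucosa (blue), with the mean and SD of each group in black and the replicate number beside each point. The normal samples lie within 0.2 of each other for Gkn1, Gkn2, Tff1 and Tff2, while adenocarcinoma replicate 1 is low for Gkn1 and Gkn2 and replicate 4 is high for Tff3.

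The arrays were checked first. The median gene had an SD of 0.189 among adenocarcinomas and 0.129 among normal samples. The background control probes of an array had a median of 6 to 6.2 (adenocarcinoma) or 6.2 to 6.4 (normal mucosa), and the 6 genes lay above it on all 8 arrays. The highest value on any array was 14.4 to 14.5, and in normal mucosa Gkn1, Gkn2, Tff1 and Tff2 lay at 13.8 to 14.1, near that upper end. Whether signals so near the top of the scale were compressed was not tested. Xist, the RNA that silences an X chromosome in females, had values of 6.2 to 6.6 in adenocarcinoma, against 11.6 to 12.7 in normal mucosa, and the Y-linked genes Eif2s3y, Ddx3y, Uty and Kdm5d were higher in all 4 adenocarcinomas. Male mice would give the values seen in adenocarcinoma and female mice those seen in normal mucosa, so in each difference given here sex and tissue cannot be told apart.

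The promoters of the gastrokines are shown because Gkn2 and Gkn3 lie 3.8 kb apart and differed in the sign of their change. The 3.8 kb separates the ends of these genes away from their promoters, and the promoters lie farther apart. RefSeq windows of GRCm38.p6, running from 250 bases before to 50 bases after the start of the gene, matched 3 of the 6 genes (Gkn1, Gkn2 and Gkn3). Each is printed 5' to 3' on the strand of its gene, with capitals for matches on either strand to GATAA (the core that GATA factors bind), TATAAA (the TATA box), CCAAT (the CCAAT box) or TGTTTAC and TGTTTGC (forms of the core that forkhead factors bind). No matches overlapped. The windows are chr6:87350866-87351165 on the minus strand for Gkn1, chr6:87373115-87373414 on the plus strand for Gkn2 and chr6:87388886-87389185 on the minus strand for Gkn3.
Gkn1: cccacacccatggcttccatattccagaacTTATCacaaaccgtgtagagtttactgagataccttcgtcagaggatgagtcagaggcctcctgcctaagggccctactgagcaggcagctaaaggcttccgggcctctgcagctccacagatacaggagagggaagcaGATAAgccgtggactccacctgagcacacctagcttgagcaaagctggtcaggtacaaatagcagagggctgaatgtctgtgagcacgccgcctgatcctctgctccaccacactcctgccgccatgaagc
Gkn2: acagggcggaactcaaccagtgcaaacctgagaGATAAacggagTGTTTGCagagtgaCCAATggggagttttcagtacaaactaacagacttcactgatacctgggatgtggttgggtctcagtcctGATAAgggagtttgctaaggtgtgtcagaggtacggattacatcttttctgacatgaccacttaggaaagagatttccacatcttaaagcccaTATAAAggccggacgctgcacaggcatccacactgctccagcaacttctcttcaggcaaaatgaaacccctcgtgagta
Gkn3: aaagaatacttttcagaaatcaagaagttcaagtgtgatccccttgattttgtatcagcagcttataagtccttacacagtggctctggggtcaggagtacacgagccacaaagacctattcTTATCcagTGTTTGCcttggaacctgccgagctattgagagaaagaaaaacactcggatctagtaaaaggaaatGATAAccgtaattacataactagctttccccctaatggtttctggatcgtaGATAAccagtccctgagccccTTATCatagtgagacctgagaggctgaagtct
The GATA core matched in all 3 windows and in 25.4% of 32851 mouse promoter windows of this length. It began at bases -220 and -81 of Gkn1, -217 and -122 of Gkn2, and -128, -54, -3 and 19 of Gkn3, counted from the start of the gene. The TATA box matched in the Gkn2 window, at base -29, and in 13.6% of all windows, and the CCAAT box in the Gkn2 window and in 37.4% of all windows. The forkhead core TGTTTGC matched in the windows of Gkn2 (base -206) and Gkn3 (base -120) and in 5.07% of all windows, and TGTTTAC in none of the 3 and in 3.65% of all. These matches are letters in a sequence, and binding was not measured.

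Gkn1 encodes gastrokine 1, a pit cell protein that holds back the growth of gastric epithelial cells. Its probe set (10545993, 25 probes) spans 87295647 to 87300909 of chromosome 6 in the deposited table, which comes with no genome build. Gkn1 was at 8.4, 12.8, 12.1 and 11.7 in adenocarcinoma replicates 1 to 4, against 13.8, 13.9, 13.9 and 13.9 in normal mucosa replicates 1 to 4. All 4 adenocarcinomas lay below all normal samples, replicate 1 far below the others. Adenocarcinoma averaged 11.25 ± 1.95 and normal mucosa 13.875 ± 0.05 (SD, 4 samples each), a difference of -2.63 ± 0.795 (SE) on the log2 scale, or 6.17-fold lower (limma adjusted p = 0.028). Single adenocarcinomas lay 44.5-fold (replicate 1), 2.11-fold (replicate 2), 3.42-fold (replicate 3) and 4.52-fold (replicate 4) below the normal mean. Without adenocarcinoma replicate 1 the difference was -1.68 (adjusted p = 0.000786). Leaving out any 1 of the normal samples lost the call (adjusted p = 0.0575 to 0.0692), with the difference at -2.62 to -2.65.

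Gkn2 encodes gastrokine 2, which in human stomach binds trefoil factor 1 through a disulfide bond. Its probe set (10539795, 26 probes) lies 22.4 kb from that of Gkn1, from 87323351 to 87329491. Gkn2 was at 9.9, 13.6, 12.6 and 13.4 in adenocarcinoma, against 14.1 in each of the 4 normal samples. Replicate 1 was again the lowest adenocarcinoma, 18.4-fold below the normal mean, while replicates 2 and 4 were 1.41-fold and 1.62-fold below it. Adenocarcinoma averaged 12.375 ± 1.71 and normal mucosa 14.1 ± 0 (SD). The difference of -1.73 ± 0.695 did not pass (limma adjusted p = 0.0723), although the groups did not overlap (two-sided exact permutation p = 0.0286, the smallest that 4 against 4 samples allow). Without adenocarcinoma replicate 1, the sample with the largest change, the difference was smaller, at -0.90, and passed (adjusted p = 0.0124). It also passed without replicate 4 (-2.07, adjusted p = 0.0497), after median centring (0.0435) and with array weights (0.0325).

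Gkn3 encodes gastrokine 3, a mucous neck cell protein in mice whose human counterpart is a pseudogene in most people. Its probe set (10546001, 32 probes) spans 87333263 to 87338929 on chromosome 6. Gkn3 was at 11.8, 12.7, 12.9 and 13.4 in adenocarcinoma, against 11.0, 11.7, 10.4 and 10.7 in normal mucosa. All 4 adenocarcinomas lay above all normal samples, but replicate 1 did so by 0.1, the rounding step of the deposited values. Adenocarcinoma averaged 12.7 ± 0.668 and normal mucosa 10.95 ± 0.557 (SD), a difference of 1.75 ± 0.360 or 3.36-fold higher (limma adjusted p = 0.00557). The call held with each of the 8 samples left out (adjusted p = 0.00123 to 0.0206) and under all 3 other scalings of the arrays (0.00515 to 0.00655).

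Tff1 encodes trefoil factor 1, the partner of the mucin Muc5ac at the gastric surface. Its probe set (10449666, 30 probes) spans 31282542 to 31301998 of chromosome 17, or 19457 bases, against a gene length of 3666 bases in RefSeq. Which transcripts the probes in the longer span detect was not tested. Tff1 was at 13.0, 13.6, 12.5 and 12.3 in adenocarcinoma, against 14.0, 14.1, 14.0 and 14.0 in normal mucosa. The groups did not overlap, and replicate 2 lay closest to the normal samples. Adenocarcinoma averaged 12.85 ± 0.580 and normal mucosa 14.025 ± 0.05 (SD), a difference of -1.18 ± 0.246 or 2.26-fold lower (limma adjusted p = 0.00614). The fall was called with each sample left out (adjusted p = 0.000487 to 0.0199).

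Tff2 encodes trefoil factor 2, or spasmolytic polypeptide, which is packed with the mucin Muc6 of the gland mucus. Its probe set (10449661, 27 probes) spans 31277998 to 31281227. It lies 1.3 kb from the deposited span of Tff1, which is longer than the RefSeq gene, so the distance between the genes may differ. Tff2 was at 13.0, 13.7, 13.6 and 13.2 in adenocarcinoma, against 13.8, 13.9, 14.0 and 13.9 in normal mucosa. The groups did not overlap, with 0.1 between the highest adenocarcinoma and the lowest normal sample. Adenocarcinoma averaged 13.375 ± 0.330 and normal mucosa 13.9 ± 0.0816 (SD). The difference of -0.53 ± 0.155, 1.44-fold lower, had a limma adjusted p of 0.0256, and it was the smallest of the 4 called changes in these families. It was not called after cyclic loess (-0.47, adjusted p = 0.0592) or with arrays centred on olfactory and vomeronasal receptor genes (-0.38, adjusted p = 0.158), nor without adenocarcinoma replicate 4 (0.0529), normal replicate 3 (0.0706) or normal replicate 4 (0.0615).

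Tff3 encodes trefoil factor 3, which goblet cells secrete together with the mucin Muc2. Its probe set (10449657, 27 probes) spans 31262259 to 31266556 on chromosome 17. Tff3 was at 8.8, 10.6, 8.3 and 13.5 in adenocarcinoma, against 8.8, 8.7, 9.7 and 10.0 in normal mucosa. Replicate 4 stood 18.4-fold above the normal mean and replicate 2 stood 2.46-fold above it, while replicates 1 and 3 were 1.41-fold and 2-fold below it. Adenocarcinoma averaged 10.3 ± 2.35 and normal mucosa 9.3 ± 0.648 (SD), and the difference of 1 ± 0.991 did not pass (limma adjusted p = 0.428). Without adenocarcinoma replicate 4 its sign turned, to -0.07 (adjusted p = 0.928). Its SD among adenocarcinomas was reached by 0.0416% of all genes, that of Gkn1 by 0.157% and that of Gkn2 by 0.287%.

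**Figure D2:**
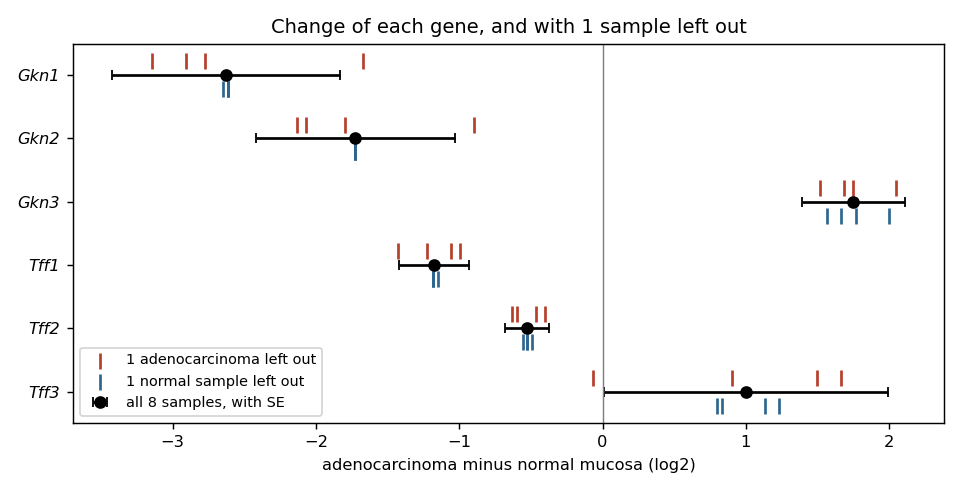
Difference of each gene, adenocarcinoma minus normal mucosa on the log2 scale (horizontal axis), with its SE (black), and the same difference with each adenocarcinoma (red ticks) or each normal sample (blue ticks) left out. Leaving out adenocarcinoma replicate 1 moves Gkn1 to -1.68 and Gkn2 to -0.90, and leaving out replicate 4 moves Tff3 to -0.07.

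Whether genes of a family changed unequally was tested with the difference between their log2 values within each array, for the 3 pairs of gastrokines and the 3 pairs of trefoil factors (two-sided exact permutation test, smallest possible p = 0.0286). Probe sets differ in brightness, so only the contrast of this quantity between the groups is read. The log2 value of Gkn1 minus that of Gkn3 was -3.4, 0.1, -0.8 and -1.7 in adenocarcinoma replicates 1 to 4, against 2.8, 2.2, 3.5 and 3.2 in normal mucosa. The groups did not overlap, and the change of Gkn1 minus that of Gkn3 was -4.38 ± 0.798 (SE) on the log2 scale (exact p = 0.0286, 0.0571 adjusted over the 6 pairs). The same quantity was -3.48 ± 0.647 for Gkn2 against Gkn3 and -0.90 ± 0.285 for Gkn1 against Gkn2, again without overlap and with the same p-values. In normal mucosa Gkn2 stood at 14.1 on every array and Gkn1 at 13.8 to 13.9, near the top of the scale, and whether unequal compression there enters their contrast was not tested. The 3 gastrokine pairs thus reached the smallest p of this design but did not pass after adjustment. They could not have passed on their own, whatever the size of their differences. With an exact p of 0.0286 in 3 of 6 pairs, the adjusted p is 0.0571 unless a trefoil factor pair also reaches 0.0286. The adjusted p therefore does not measure how unequal the gastrokine changes were.

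Among trefoil factors the change of Tff1 minus that of Tff2 was -0.65 ± 0.282 (exact p = 0.0571, 0.0857 adjusted). Within arrays Tff1 minus Tff2 was 0.0, -0.1, -1.1 and -0.9 in adenocarcinoma, against 0.2, 0.2, 0.0 and 0.1 in normal mucosa. Replicates 2, 3 and 4 lay below all normal samples in this quantity, replicate 2 by the rounding step of 0.1, while replicate 1 equalled the lowest of them. Pairs with Tff3 gave an exact p of 0.114 for Tff1 and 0.343 for Tff2 (0.137 and 0.343 adjusted).

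The 4 adenocarcinomas differed in which of these genes were low or high. Replicate 2 had the highest value of the 4 for Gkn1, Gkn2, Tff1 and Tff2. Replicate 1 had the lowest value for Gkn1, Gkn2, Gkn3 and Tff2, replicate 4 the lowest for Tff1 and replicate 3 the lowest for Tff3. Replicate 4 had the highest values of Gkn3 and Tff3. Among all genes without ties, replicate 2 was the highest adenocarcinoma for 18.7% and replicate 4 for 31.9%, and replicate 1 was the lowest for 31.2%.

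Surface pit cells were represented by 12 other genes. Of these, 10 fell and none rose, with a median of -1.10, and 2 did not pass. The falls numbered 12 after median centring, 9 after cyclic loess and 7 with arrays centred on receptor genes. They numbered 7 without normal replicate 3 and 8 without each other normal sample, and in each of these cases none rose. Muc5ac, the gel-forming mucin of the gastric surface, was at 7.5, 11.3, 8.2 and 10.1 in adenocarcinoma, against 14.0, 14.1, 14.1 and 14.1 in normal mucosa (-4.80 ± 0.709, limma adjusted p = 0.000992). The surface antigen Psca fell by 4.45 ± 0.564 and the digestive tract protease Capn9 fell by 4.18 ± 0.278 on the log2 scale (adjusted p = 0.000429 and 1.07e-05). Replicate 2 was the highest adenocarcinoma for 8 of 11 pit cell genes without a tie for the highest, as it was for Gkn1, Gkn2 and Tff1. Replicate 3, not replicate 1, was the lowest for 7 of the 11 without a tie for the lowest. Replicate 1 was the lowest for 2 of them, Muc5ac and Capn9 (7.1, against 7.4 in replicate 3). Gkn1 and Tff1 thus fell beside the pit cell list, but the lowest Gkn1 lay in another tumour than the lowest values of most pit cell genes.

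Mucous neck cells and spasmolytic metaplasia were represented by 12 genes, of which 8 rose and 1 fell, with a median of 1.58. The rises numbered 8 under all 3 other scalings of the arrays and 6 with the replicate number as a block. They numbered 7 without normal replicate 1 and 6 without each other normal sample. The chloride channel Cftr (4.10 ± 0.581, adjusted p = 0.000783), the hyaluronan receptor Cd44 (3.98 ± 0.296, 2.06e-05) and the secreted protease inhibitor-like Wfdc2 (3.28 ± 0.247, 2.2e-05) had the largest rises. The only fall, named after its value was seen, was that of the glycosyltransferase A4gnt, which caps the sugars of gland mucin and fell by 1.98 ± 0.422 (adjusted p = 0.00663). Gkn3 rose as most of this list did, while Tff2 fell, as A4gnt did. Agr2 and Olfm4, also named after their values were seen, were at -0.675 ± 0.272 and 2.35 ± 0.866 and did not pass (adjusted p = 0.072 and 0.0553). Which cells the rises of this list came from was not tested. The gland mucin Muc6 was at 11.1, 12.8, 13.4 and 13.0 in adenocarcinoma, against 13.4, 13.6, 13.4 and 13.2 in normal mucosa, a difference of -0.83 ± 0.422 that did not pass (adjusted p = 0.139). Replicate 1 was the lowest adenocarcinoma for 7 of these 12 genes, Muc6 and Cftr among them, as for Gkn3 and Tff2. Replicate 4 was the highest for 6 of 10 without ties.

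**Figure D3:**
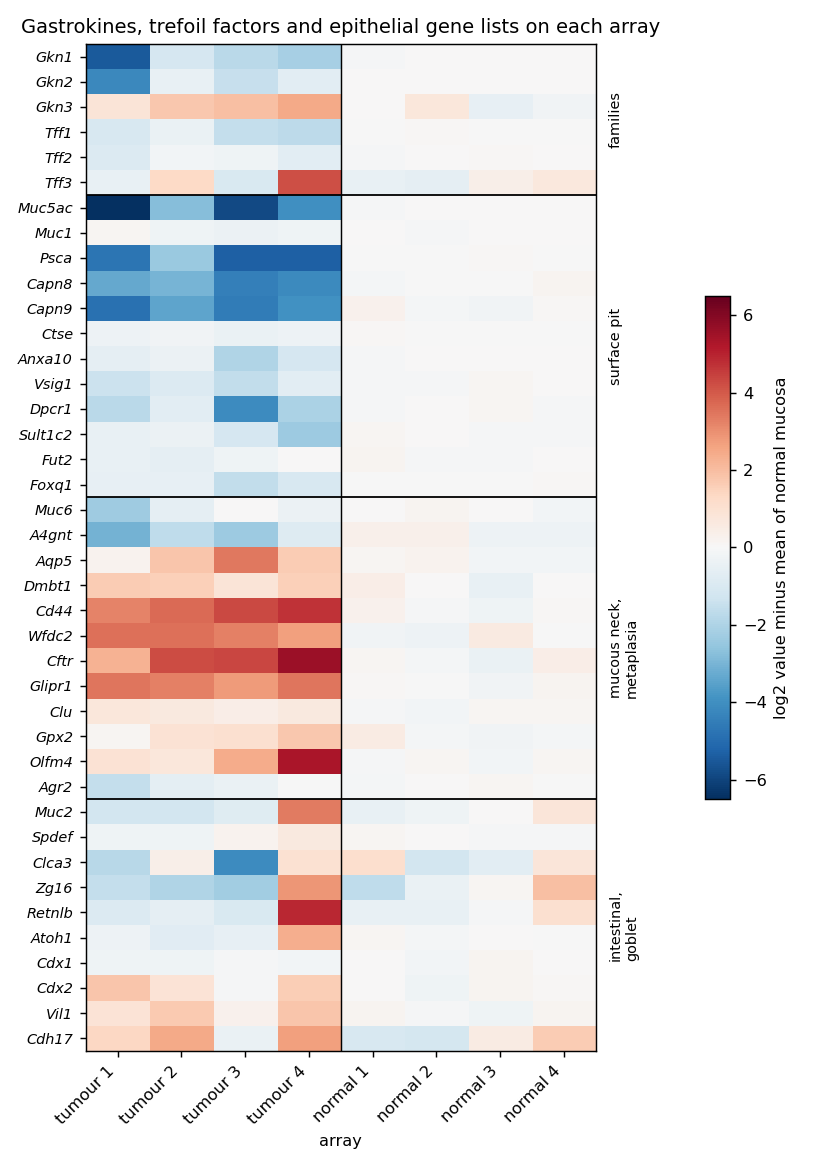
Log2 value minus the mean of normal mucosa (colour, red above and blue below) for the 6 genes and the genes of 3 epithelial lists, with the 4 adenocarcinomas (tumour) at the left and the 4 normal samples at the right. Gkn1, Gkn2, Tff1 and Tff2 are below the normal mean in all 4 adenocarcinomas, as Muc5ac and Psca are, while Gkn3, Cd44 and Wfdc2 are above it and Tff3, Muc2 and Retnlb are high in replicate 4.

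Tff3 is best read beside the intestinal and goblet cell list, of which 10 of 11 genes were measured. Only 2 of the 10 were called, the microvillus protein Vil1 (1.18 ± 0.312, adjusted p = 0.0173) and the intestinal transcription factor Cdx2 (1.05 ± 0.366, 0.0458). Both calls were lost without normal replicate 3, where the list had 0 calls, and Cdx2 was not called without normal replicate 2 either (0.103). Nor was Cdx2 called after median centring (limma adjusted p = 0.0557) or cyclic loess (0.0585), and its groups overlapped. Without adenocarcinoma replicate 4 the list had 1 rise and 2 falls, and its median was -0.392 instead of 0.125. The goblet cell mucin Muc2 was at 7.6, 7.6, 8.0 and 12.2 in adenocarcinoma, against 8.3, 8.5, 8.8 and 9.6 in normal mucosa (0.05 ± 0.941, adjusted p = 0.979). Replicate 4 was high for both Muc2 and Tff3, and it was the highest adenocarcinoma for 8 of the 10 genes. Clca3, Cdx1, Zg16, Retnlb, Atoh1 and Sox2 are named because of their values. The exceptions were Cdx2, highest in adenocarcinoma replicate 1 (9.8, against 9.6 in replicate 4), and Cdx1, highest in replicate 3 (8.6, against 8.5). Clca3 was at 13.4 in adenocarcinoma replicate 4, below the 13.5 of normal replicate 1. In replicate 4 the goblet cell lectin Zg16 was at 12.0, the secreted Retnlb at 11.6 and the goblet cell transcription factor Atoh1 at 9.9, against at most 7.6, 6.1 and 7.2 in the other 3 adenocarcinomas. In the normal samples these 3 genes ranged from 7.5 to 11.1, 6.2 to 7.7 and 7.4 to 7.7. Normal replicate 4 was the highest normal sample for Tff3, Muc2, Zg16 and Retnlb. In adenocarcinoma replicate 4 the foregut transcription factor Sox2 was at 7.4, against 10.6, 10.6 and 9.7 in replicates 1 to 3 and 9.2 to 9.9 in normal mucosa. Whether intestinal cells or intestinal tissue contributed to these arrays was not tested.

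**Figure D4:**
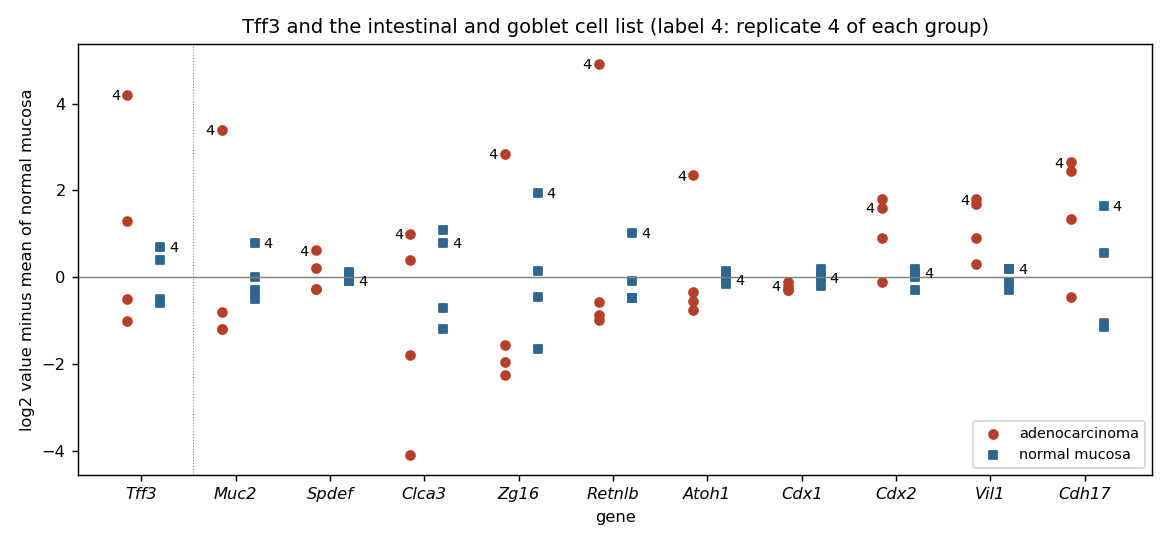
Log2 value minus the mean of normal mucosa (vertical axis) for Tff3 and the 10 measured genes of the intestinal and goblet cell list, in 4 adenocarcinomas (circles) and 4 normal samples (squares), with replicate 4 of each group labelled. Adenocarcinoma replicate 4 is the highest of the 8 samples for Tff3, Muc2, Zg16, Retnlb and Atoh1, but not for Clca3, Cdx1 or Cdx2.

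Partners and proposed receptors of these proteins were represented by 8 measured genes of 9, and 3 rose and 3 fell (median -0.14). Muc5ac, Muc6, Muc2 and Dmbt1 also belong to the epithelial lists above. Muc5ac, the mucin that Tff1 accompanies, had the largest fall, while Muc6 and Muc2, the mucins of Tff2 and Tff3, did not pass. The chemokine receptor Cxcr4, proposed as a receptor of Tff2, was at 9.3, 9.6, 10.3 and 9.4 in adenocarcinoma, against 8.3, 8.0, 8.2 and 8.0 in normal mucosa (1.53 ± 0.205, adjusted p = 0.000592). Dmbt1, a mucosal scavenger receptor protein that binds trefoil factors, rose by 1.38 ± 0.223 (adjusted p = 0.00164). Lingo2 and Lingo3, named after their values were seen, fell by 0.325 ± 0.111 and 0.375 ± 0.106 (adjusted p = 0.0432 and 0.0222). Neither of these falls was called with arrays centred on receptor genes (0.26 and 0.118). The count of falls was 1 with arrays centred on receptor genes and without adenocarcinoma replicate 2, normal replicate 1 or normal replicate 3, and in each of these cases 3 genes rose.

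Among 15 transcription factors of the foregut and mucous lineages, 6 fell and 2 rose (median -0.03). Klf4, which restrains division in the gastric epithelium, was at 10.4, 10.6, 9.8 and 10.1 in adenocarcinoma, against 12.2, 12.1, 12.2 and 12.2 in normal mucosa (-1.95 ± 0.159, adjusted p = 3.44e-05). The forkhead factor Foxa3 fell by 1.53 ± 0.265 and the GATA factor Gata4 fell by 1.2 ± 0.102 (adjusted p = 0.00234 and 4.22e-05). Of the other GATA factors, Gata6 fell by 0.68 ± 0.173 (adjusted p = 0.0148) and Gata5 was at 0.10 ± 0.138 (0.571). Of the other forkhead factors of this set, Foxq1, which the pit cell list also holds, fell by 0.925 ± 0.224 (adjusted p = 0.0118) and Foxa2 fell by 0.575 ± 0.182 (0.0334), while Foxa1 was at -0.18 ± 0.171 (0.422). The fall of Foxa2 was not called with arrays centred on receptor genes (0.103) or without normal replicate 1 (0.0802). The number of rises was 4 with arrays centred on receptor genes and 1 without adenocarcinoma replicate 3, without each normal sample and after median centring.

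Markers of other cell types moved with the groups. All 8 parietal cell genes and all 5 chief cell genes fell, with medians of -4.49 and -4.28. Their mean levels were 7.3 to 7.5 and 7.72 to 8.80 in adenocarcinoma, against 11.28 to 11.54 and 11.94 to 12.54 in normal mucosa. Of 5 endocrine genes, 3 fell (median -2.45), and their mean level was 8.04 to 9.42 in adenocarcinoma, against 10.18 to 10.96 in normal mucosa. Fibroblast (8 of 8), endothelial (5 of 5), smooth muscle (6 of 6) and leukocyte genes (7 of 9) rose. The 2 leukocyte genes that did not pass, named after their values were seen, were the lymphocyte genes Cd3e and Cd79a. They were at 0.075 ± 0.153 and 0.85 ± 0.448 (adjusted p = 0.705 and 0.15). The mean level of the fibroblast genes was 11.26 to 12.18 in adenocarcinoma, against 7.92 to 8.46 in normal mucosa. That of the endothelial genes was 9.86 to 10.88 against 7.34 to 7.46, that of the smooth muscle genes 9.22 to 12.2 against 7.82 to 7.97, and that of the leukocyte genes 9.53 to 10.31 against 7.67 to 7.81, each in adenocarcinoma against normal mucosa. Leaving out adenocarcinoma replicate 2 or 3, or any normal sample, took the smooth muscle calls to 4. No marker could be at 0 on this scale. Of 6 general epithelial genes, 2 rose and 2 fell, and their mean level was 12.42 to 12.82 in adenocarcinoma, against 13.05 to 13.1 in normal mucosa. The lower mean rested on the adhesion gene Cdh1 (-3.23 ± 0.394, adjusted p = 0.000354). Without it, a choice made after its values were seen, the mean level of the other 5 genes was 13.14 to 13.2 in adenocarcinoma, against 13.1 to 13.14 in normal mucosa. The part of these shifts in tissue makeup in the changes of gastrokines and trefoil factors was not tested. In adenocarcinoma replicate 1, where Gkn1 and Gkn2 were lowest, the mean levels of fibroblast, smooth muscle, endothelial and leukocyte genes were each the lowest of the 4 adenocarcinomas (11.26, 9.22, 9.86 and 9.53), and the mean level of general epithelial genes was 12.60. The mean levels of chief cell (7.72), parietal cell (7.3), endocrine (8.04) and mucous neck cell genes (11.12) were also lowest there, and this sample was the lowest adenocarcinoma for 31.2% of all genes without ties.

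Of the genes next to the families, some rose where members fell. Within 150 kb in the deposited table, 3 other genes flanked the gastrokines and 6 flanked the trefoil factors. Antxr1, a collagen-binding receptor also known as tumor endothelial marker 8, lies 9.9 kb from Gkn1 and rose by 2.10 ± 0.289 (adjusted p = 0.000674), while Gkn1 fell. Beyond Gkn3, Bmp10, a growth factor of the heart, was at -0.08 ± 0.0955 (0.538), and Arhgap25, a GTPase regulator of leukocytes, rose by 0.975 ± 0.204 (0.006). Abcg1, a cholesterol exporter 9.5 kb from Tff3, rose by 1.48 ± 0.241 (0.0017). Tmprss3, a membrane serine protease, lies 14.2 kb from the long deposited span of Tff1 and 35.0 kb from Tff2. Tmprss3 and Umodl1 fell by 0.425 ± 0.0832 and 0.325 ± 0.0832 (0.00437 and 0.0147). Neither fall was called with arrays centred on receptor genes (0.0513 for Tmprss3 and 0.162 for Umodl1). Ubash3a, Rsph1 and Slc37a1 were at -0.18 ± 0.116, -0.18 ± 0.106 and -0.15 ± 0.128 and did not pass (0.203 to 0.356).

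**Figure D5:**
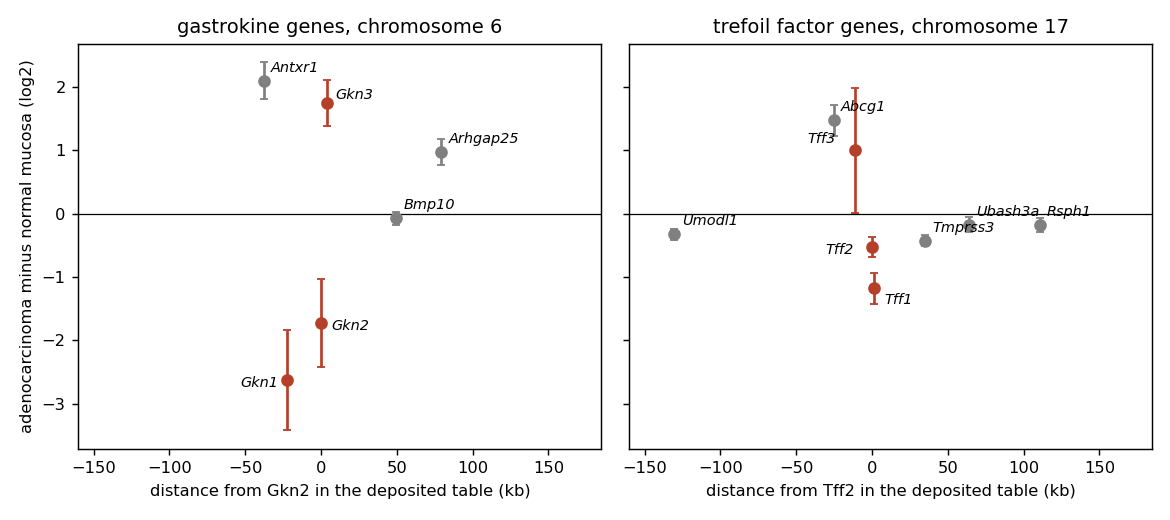
Difference, adenocarcinoma minus normal mucosa on the log2 scale with its SE (vertical axis), of the gastrokine and trefoil factor genes (red) and their neighbours (grey) against the distance in the deposited table from Gkn2 (left panel) and Tff2 (right panel). Slc37a1 lies over 150 kb from Tff2 and is not drawn. Gkn2 and Gkn3, 3.8 kb apart, lie on opposite sides of 0, and so do Gkn1 and Antxr1.

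For Gkn1, Gkn3 and Tff1, which were called and changed at least 2-fold, the genes most like them were found by the mean absolute difference over the 8 arrays between log2 values, each taken relative to its own mean in normal mucosa. No test was made. Closest to Gkn1 were the fatty acid carrier Cd36 (0.400), the pepsinogen Pgc of chief cells (0.450), Gkn2 (0.469), Pcp4l1 (0.488) and the peroxisomal enzyme Phyh (0.525). Pgc was at 9.7, 11.8, 13.2 and 11.7 in adenocarcinoma, against 14.0, 14.2, 14.1 and 14.0 in normal mucosa, and Cd36 at 6.2, 9.9, 10.1 and 7.6 in adenocarcinoma, against 11.4, 11.7, 11.6 and 11.4 in normal mucosa. Both were lowest in replicate 1, as Gkn1 was. Closest to Gkn3 were Fhl5 (0.225), Lgr5 (0.275), Dpy19l1 (0.275), Rin2 (0.281) and the motor protein Myo5a (0.287). Lgr5, a receptor of gastric stem cells, was at 8.7, 8.9, 10.0 and 9.8 in adenocarcinoma, against 7.8, 8.1, 7.5 and 7.6 in normal mucosa. Closest to Tff1 were Pllp (0.088), Greb1l (0.112), Trerf1 (0.125), Sytl5 (0.137) and Smarcd3 (0.156), and none of these 5 is another gastrokine or trefoil factor. Among all other genes Gkn2 ranked 3 in likeness to Gkn1, Tff1 ranked 192, Tff2 ranked 1456 and Gkn3 ranked 21177. The ranks were not mutual: in likeness to Tff1 Gkn2 ranked 8588 and Gkn1 ranked 15543. This measure takes in the size of a change as well as its pattern over the arrays. The differences of Gkn1 and Gkn2 were -2.63 and -1.73, against -1.18 for Tff1.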

How the data were processed

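The deposited values are log2 values made with RMA (background correction, normalisation between arrays and a summary per probe set) by the authors, per the submitters' processing notes. The sources used here give no version or settings. All 284448 deposited values had at most 1 decimal, and 0 of them differed between both deposited tables. Of 35556 probe sets, 28350 were gene probe sets and 24975 of these carried 1 symbol. A gene with several probe sets took the brightest one over the 8 arrays, which left 21626 genes, dim ones included.

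The groups (4 arrays each, a number that limits the precision) were compared by limma 3.58.1 in R 4.3.3 (lmFit and eBayes, two-sided, Benjamini-Hochberg over all genes, adjusted p under 0.05). The code was tested on simulated data. Tables and plots used pandas 2.3.3 and matplotlib 3.10.9 in Python 3.11.15. The replicate numbers were not used as pairs, since the deviations of same-numbered arrays from their group means correlated at -0.175 to 0.158 across genes. Of the 4 adenocarcinomas, 2 correlated best with the normal array of their own number. No scan dates were used, so no batch could be tested.

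The genes, lists and tests were chosen with earlier results of these data known. Named genes were the 6 genes, genes within 150 kb of them, the 3 largest called changes per list, 3 mucins, the 5 genes nearest in likeness and sex-linked genes. For the lists of other cell types the largest changes were left out, and of the general epithelial genes only Cdh1 was named. Other named genes are marked as chosen after their values were seen or are further members of a named gene's family. The alternatives were 3 other scalings of the arrays, 32 intensity units added before log2, no dim genes, the mean of probe sets, other variance models, the replicate number as a block, seeded noise against rounding, each array left out and an adjusted p under 0.01.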

Additional observations from a re-analysis of the deposited data

Results flagged for a closer look

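In groups of 4 samples, the highest or lowest value was set against the others by Dixon's ratio, the gap to its nearest neighbour over the whole range. Of 11 groups of values with any spread, 2 stood out, where chance gives about 1 in 20. Gkn1 was at 13.8 in normal mucosa replicate 1, against 13.9 in the other 3 normal samples. Tff1 was at 14.1 in normal mucosa replicate 2, against 14.0 in the other 3. Both gaps are 0.1, the rounding step of the deposited values. When the whole range is 0.1, a single differing sample always gives a ratio of 1.0. The rate of 1 in 20, which holds for unrounded values, does not apply to such groups, and nothing is concluded from these flags. No adenocarcinoma value passed this criterion, those of Gkn1 in replicate 1 (8.4) and Tff3 in replicate 4 (13.5) included.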

How the results depend on the processing

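Gkn3 and Tff1 kept their direction and their call under all 19 alternatives, the replicate block included (Gkn3 1.75, adjusted p = 0.0247, and Tff1 -1.18, 0.0164). Gkn1 kept its direction in all. It was at -2.63 (adjusted p = 0.028) and so not called at an adjusted p under 0.01, and ranged from -3.14 to -1.68 with a sample left out. Gkn2 passed after median centring (-1.86) and with array weights (-1.54), and ranged from -2.13 to -0.90 with a sample left out. Tff2 was not called after cyclic loess (-0.47), after centring on receptor genes (-0.38) or at an adjusted p under 0.01 (-0.53), and ranged from -0.63 to -0.40 with a sample left out. Tff3 ranged from -0.067 to 1.67 with a sample left out. With the replicate block Gkn1, Gkn2, Tff2 and Tff3 stayed at -2.63, -1.73, -0.53 and 1 with no call changed. Whether the replicate numbers pair the samples was not established. Over all genes 3942 were higher and 5099 lower in adenocarcinoma. At an adjusted p under 0.01 these were 2376 and 1912. The lower genes numbered 9272 after median centring, 3239 after cyclic loess, 1700 after centring on receptor genes, 3181 without the dimmest 30% of genes and 2975 to 5456 with a sample left out. The share of calls that were higher was 43.6%, against 24.8%, 54.8% and 73.8% under the 3 other scalings, under which the median change of all genes was -0.238, -0.00559 and 0.05 in place of -0.10. The cause of these changes was not tested. Rounding to 0.1 and the upper end of the scale limit what small differences can show.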

Other observations

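Other mouse genes that encode BRICHOS or trefoil domains were looked at beside the families, 10 of 11 listed being measured. Of these, 2 rose and 3 fell (median -0.16). Itm2a, a membrane protein with a BRICHOS domain, was at 10.3, 9.3, 9.6 and 10.2 in adenocarcinoma, against 6.7, 7.2, 6.4 and 6.7 in normal mucosa (3.10 ± 0.247, limma adjusted p = 2.93e-05). Gaa, the lysosomal alpha-glucosidase, which carries a trefoil domain, rose by 1.05 ± 0.116 on the log2 scale (adjusted p = 0.000198). The 3 falls were small, that of the chondromodulin gene Lect1 being 0.375 ± 0.0896 (0.011), and none of them was called after cyclic loess or with arrays centred on receptor genes. The intestinal enzyme gene Mgam, which carries trefoil domains and was chosen after its values were seen, was at 12.5 in adenocarcinoma replicate 4, where Tff3 was highest, and at 7.3 to 7.9 in the other 3 adenocarcinomas, against 7.0 to 10.4 in normal mucosa. Sis, another intestinal enzyme gene with trefoil domains and likewise chosen after its values were seen, went the other way, at 5.4, 5.4, 5.3 and 5.4 in adenocarcinoma replicates 1 to 4, against 5.5 to 9.2 in normal mucosa (adjusted p = 0.117).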
